A study of Populus tremula x Populus alba with 6 samples.

Results

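CACTA, hAT, Harbinger and Helitron transposons were followed in the mobilome of shoot apical meristems of hybrid poplar (Populus tremula x Populus alba, clone 717-1B4). A locus was counted as a member when the first family name it was listed under began with ENSPM or EnSpm (CACTA), hAT, Harbinger or Helitron. By this rule 55 of 436 listed loci were members, namely 23 CACTA, 7 hAT, 5 Harbinger and 20 Helitron loci, and they made up 72 of 665 entries in the lists. The 6 libraries came from RNAi ddm1 line 15, RNAi ddm1 line 23 and wild type (WT), each after drought and rewatering (called drought below) and under control watering. Mobilome-seq amplifies and sequences extrachromosomal circular DNA, and here each library was deposited as a list of transposable element loci with their signals. The promoter of the RNAi construct, the number of plants behind a library and whether the 2 lines arose independently are not stated in the labels, and the level of the RNAi target was not measured by this DNA assay.

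CACTA, hAT and Harbinger elements are DNA transposons with terminal inverted repeats, which a transposase cuts out of the chromosome and inserts elsewhere. Helitrons move by a rolling-circle mechanism that uses a replication initiator and helicase protein, and their intermediates can be circular. DDM1 is a chromatin remodeller that keeps DNA methylation on transposons, and in Arabidopsis its loss is known to release CACTA elements from silencing.

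Each group had 1 library, so no value below has a spread within its group. A locus absent from a list was called unlisted, since the lists hold only loci above limits that are not given here. The whole lists held 79 loci after drought and 169 in control in line 15, 44 after drought and 109 in control in line 23, and 115 after drought and 149 in control in WT. The signals headed DOC and SR in the deposited tables were read as depth of coverage and split reads, the second being reads that cross a junction. They are called depth value and split-read value, are not scaled to library size and are given as deposited. Coordinates are those of the deposited tables, counted from 1, and their genome build is not given in the sources read here. Gene annotation was not used, so the place of a locus relative to genes is not stated.

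Drought lists held fewer member loci than control lists in each genotype. There were 5 after drought and 21 in control in line 15, 5 after drought and 14 in control in line 23, and 12 after drought and 15 in control in WT. Averaged over the genotypes, the difference, drought minus control, was -9.33 member loci (SD 6.51, n = 3), or -6 without line 15. The lists as a whole were also shorter after drought, so the member share of the list was 6.33% in line 15 drought (exact 95% Clopper-Pearson interval 2.09 to 14.2) and 12.4% in line 15 control (7.86 to 18.4). It was 11.4% in line 23 drought (3.79 to 24.6) and 12.8% in line 23 control (7.20 to 20.6), and 10.4% in WT drought (5.51 to 17.5) and 10.1% in WT control (5.74 to 16.1). The intervals of the drought and control shares overlapped in all 3 genotypes. Intervals here and below cover counting error only, with listed loci taken as independent. They leave out the spread between libraries, since each group had 1 library. Amplified circles are also not independent molecules.

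**Figure D1:**
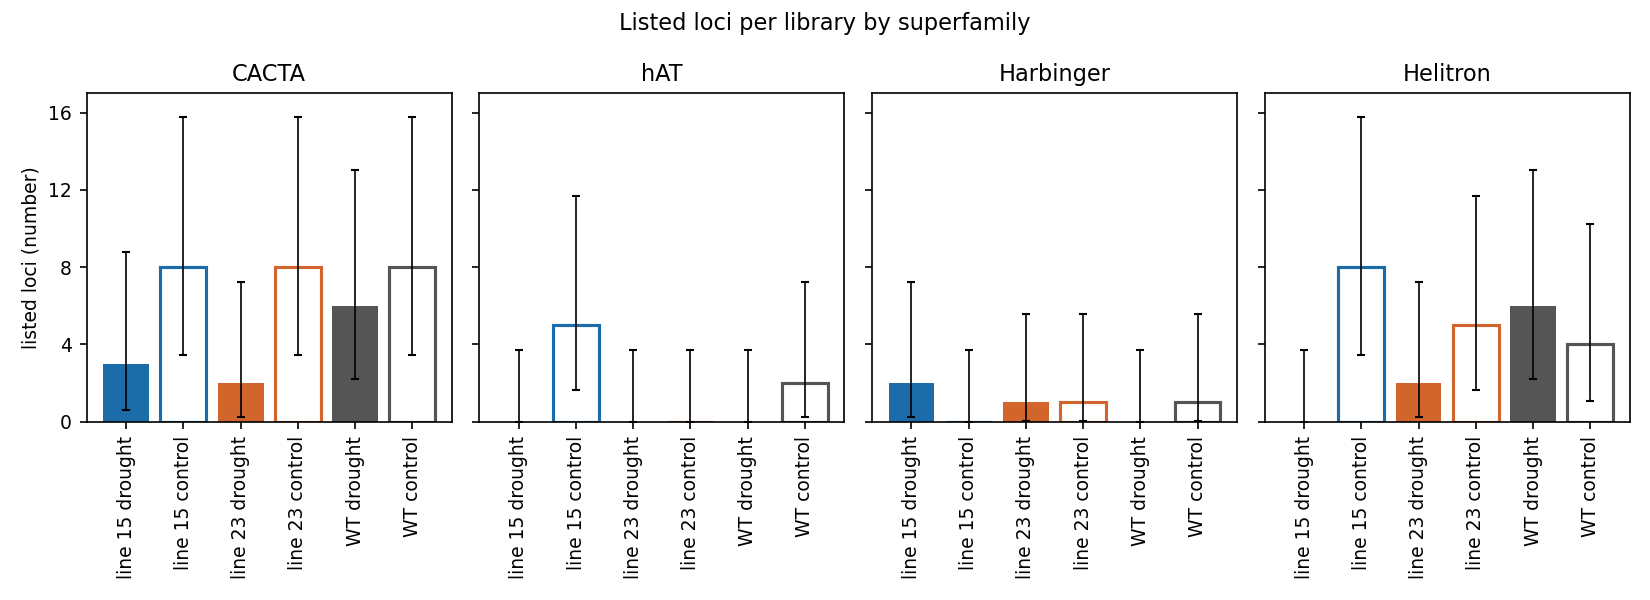
Number of listed loci of each superfamily (vertical axis) in the 6 libraries (horizontal axis); filled bars are drought libraries, open bars control libraries, and lines are exact 95% Poisson intervals. CACTA holds 8 loci in each control library and 3, 2 and 6 in the drought libraries, while hAT is listed in 2 control libraries and in no drought library.

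Member loci seldom appeared in both lists of a genotype. In line 15, 20 of 25 member loci were listed under control watering and not after drought (63.8% of all 218 loci of that genotype did so), 4 were listed after drought only (22.5% of all loci) and 1 was in both lists (13.8% of all loci). In line 23, 13 of 18 were in the control list only (68.1% of all 138 loci), 4 in the drought list only (21.0%) and 1 in both (10.9%). In WT, 13 of 25 were in the control list only (49.1% of all 226 loci), 10 in the drought list only (34.1%) and 2 in both (16.8%). Across the 6 libraries, 37 of 55 member loci were listed under control watering alone, against 56.7% of all 436 loci. A further 13 were listed after drought alone, against 24.5% of all loci, and 5 under both waterings, against 18.8%. The members thus stood near the shares of all loci for drought alone, and with 5 loci the lower share under both waterings rests on few cases.

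CACTA was the largest of the 4 superfamilies. It was listed at 3 loci in line 15 drought and 8 in line 15 control, at 2 after drought and 8 in control in line 23, and at 6 after drought and 8 in control in WT. The 95% Poisson interval of each of the 3 control numbers was 3.45 to 15.8, and those of the drought numbers were 0.619 to 8.77 in line 15, 0.242 to 7.22 in line 23 and 2.20 to 13.1 in WT, so they overlapped in every genotype. Averaged over the genotypes this came to -4.33 loci, drought minus control (SD 2.08, n = 3). As a share of the list CACTA made up 3.80% after drought and 4.73% in control in line 15, 4.55% after drought and 7.34% in control in line 23, and 5.22% after drought and 5.37% in control in WT.

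Summed over the listed CACTA loci, depth values came out lower after drought in all 3 genotypes. The sum was 152 after drought and 984 in control in line 15. It was 20 after drought and 761 in control in line 23. It was 267 after drought and 1592 in control in WT. The log2 ratios, drought over control, were -2.69 in line 15, -5.25 in line 23 and -2.58 in WT, with a mean of -3.51 (SD 1.51, n = 3 genotypes), and no test was run on this sum over members. Such a sum follows the length that was listed, which was 616 and 1835 bp in line 15 drought and control, 366 and 1708 bp in line 23 drought and control, and 1205 and 1636 bp in WT drought and control. Per entry the mean depth value was 50.7 after drought and 123 in control in line 15, 10 after drought and 95.1 in control in line 23, and 44.5 after drought and 199 in control in WT. The median per entry lay closer together. For drought and control it was 32 and 59 in line 15, 10 and 11.5 in line 23, and 18 and 23 in WT. The log2 ratio of listed length, drought over control, was -1.57 in line 15, -2.22 in line 23 and -0.44 in WT. In line 15 this was larger in size than the -1.12 per 100 bp of listed length. In line 23 (-3.03 per 100 bp) and WT (-2.13 per 100 bp) it was smaller.

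**Figure D2:**
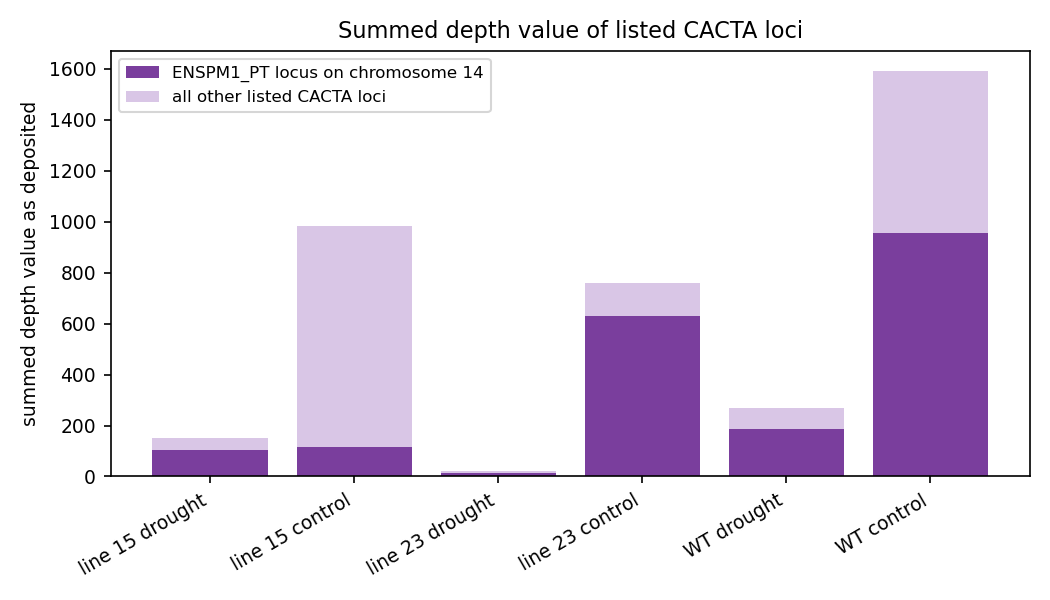
Summed depth value of the listed CACTA loci (vertical axis, as deposited) in the 6 libraries, split into the ENSPM1_PT locus on chromosome 14 (dark) and all other CACTA loci (light). Each drought bar is lower than the control bar of its genotype, and in line 15 control the chromosome 14 locus is only 11.6% of the sum.

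For the loci outside the 4 superfamilies, the summed depth value had log2 ratios, drought over control, of -0.45 in line 15, -0.96 in line 23 and -1.58 in WT. Without the highest locus of each list these were 0.59 in line 15, 0.17 in line 23 and -2.48 in WT. That locus differed between the waterings, being a Gypsy-27_PTr-I-int locus in each drought list and a Gypsy23-PTR_I-int locus in each control list. In WT the Gypsy-27_PTr-I-int locus was thus taken out of the drought list (22796) but kept in the control list (20299). Ratios without the highest locus, here and below, therefore do not compare the same loci. Per 100 bp of listed length, the CACTA log2 ratio was -1.12 in line 15, -3.03 in line 23 and -2.13 in WT. On that scale the other loci gave 0.34 in line 15, -0.17 in line 23 and -0.44 in WT, and without their highest locus 1.68 in line 15, 1.5 in line 23 and -1.10 in WT. Divided by the summed depth of the whole list, the CACTA log2 ratio was -2.22 in line 15, -4.26 in line 23 and -0.98 in WT. Whether CACTA and the other loci differed in this respect was not tested, with 1 pair of libraries in each genotype.

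ENSPM1_PT was the most frequent CACTA name, with 13 loci and 21 entries. It supplied 1 entry after drought and 6 in control in line 15, 1 after drought and 3 in control in line 23, and 4 after drought and 6 in control in WT. The only member of any superfamily listed in all 6 libraries carried this name and lies on chromosome 14 (4297763 to 4298011, 249 bp), where the names ENSPM1_PT and EnSpm3_PT were both given. Its depth value was 102 after drought and 114 in control in line 15, 12 after drought and 630 in control in line 23, and 186 after drought and 956 in control in WT. The value was lower after drought in each genotype, but by a log2 ratio of only -0.16 in line 15, against -5.71 in line 23 and -2.36 in WT. The mean was -2.75 (SD 2.80, n = 3, exact two-sided sign-flip p = 0.25, the smallest that 3 genotypes allow), and it was -1.26 without line 23. The 3 drought values overlapped with the 3 control values, since 114 in line 15 control was below 186 in WT drought. On division by the summed depth of the list the mean was -1.73, 2 of the 3 genotypes being lower after drought (p = 0.5 by the exact sign-flip test).

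The split-read signal of this chromosome 14 locus ran the same way. It was 25 after drought and 28 in control in line 15, 3 after drought and 55 in control in line 23, and 22 after drought and 50 in control in WT. The mean log2 ratio was -1.85 (SD 2.10, n = 3, exact sign-flip p = 0.25). Split reads covered a fraction of 0.458 of the locus in line 15 drought and 0.478 in line 15 control, 0.301 after drought and 0.635 in control in line 23, and 0.273 after drought and 0.763 in control in WT. Both 55 and 50 were the highest split-read values of any member. The locus held 67.1% of the CACTA depth in line 15 drought and 11.6% in line 15 control, 60% after drought and 82.8% in control in line 23, and 69.7% after drought and 60.1% in control in WT. Without it the CACTA sum was 50 after drought and 870 in control in line 15, 8 after drought and 131 in control in line 23, and 81 after drought and 636 in control in WT, with a mean log2 ratio of -3.71.

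The other ENSPM1_PT loci of high depth were listed in control libraries only, as were 15 of 23 CACTA loci and 56.7% of all 436 loci. The locus on chromosome 5 at 1052376 to 1052600 (225 bp) had depth values of 412 (line 15 control) and 26 (WT control), with split-read values of 9 and 27 in the same order, so the library with the higher depth had the lower split-read value. Another, on chromosome 5 at 18898989 to 18899239 (251 bp), was listed in WT control alone, with a depth value of 332 and a split-read value of 18. Of similar height were 2 loci picked out after their values were seen. The chromosome 5 locus at 11233521 to 11233805 (285 bp) was listed in line 15 control alone with 312, and the chromosome 2 locus at 5619594 to 5619805 (212 bp) had 80 in line 15 control and 226 in WT control. No CACTA entry of a drought library exceeded 186, the WT value at the chromosome 14 locus. The remaining 8 ENSPM1_PT loci had depth values from 4 to 70.

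The EnSpm2_PTr, EnSpm3_PT and EnSpm1B_PT loci carried lower depth values, none above 38. EnSpm2_PTr was listed at 6 loci, of which the one on chromosome 5 at 2400767 to 2400995 (229 bp) recurred. Its depth values were 38 (line 15 control), 20 (line 23 control) and 29 (WT drought), with split-read values of 22, 6 and 25. It was unlisted in WT control, line 15 drought and line 23 drought. Its listing thus followed neither watering alone nor genotype alone, being under control watering in both RNAi lines and after drought in WT. EnSpm3_PT on chromosome 1 (23456719 to 23456835, 117 bp) had 18 in line 15 drought, 8 in line 23 drought and 6 in WT control, with split-read values of 20, 6 and 8. Among CACTA loci it was the one listed after drought in both RNAi lines and under control watering in neither. Both EnSpm1B_PT loci were listed once, in line 15 drought with 32 and in line 23 control with 10.

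**Figure D3:**
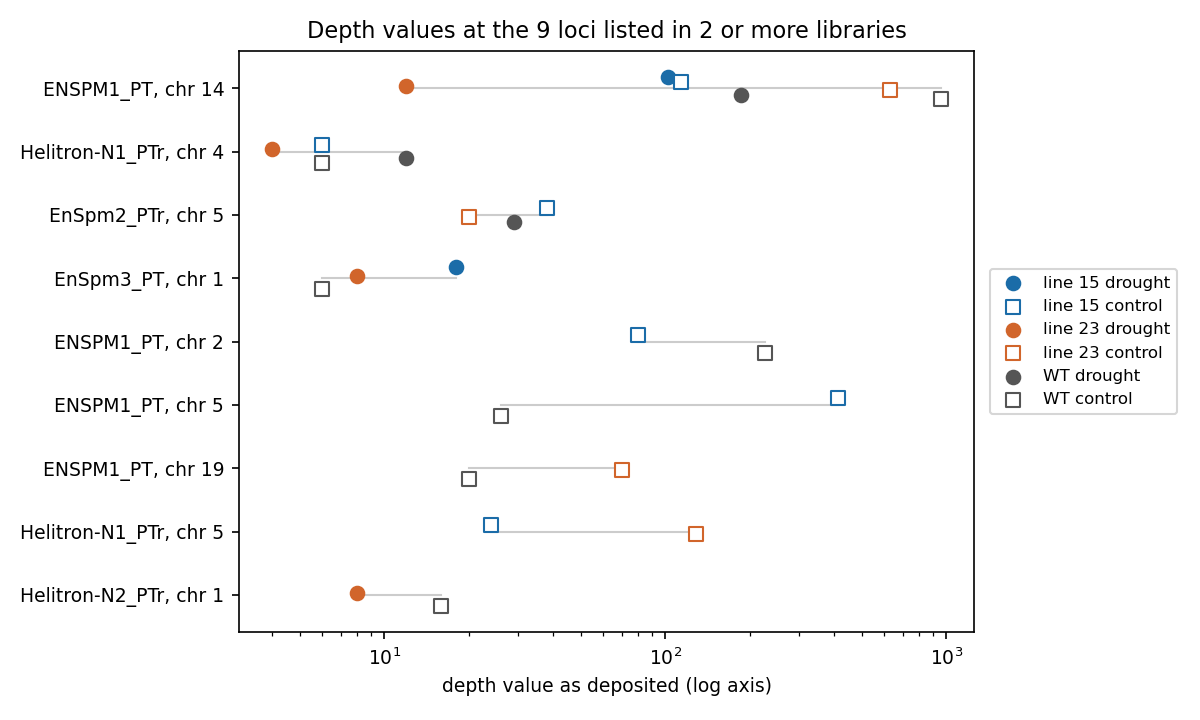
Depth value as deposited (horizontal log axis) at the 9 loci of the 4 superfamilies listed in 2 or more libraries (vertical axis, by name and chromosome); circles are drought libraries, squares control libraries, colours genotypes, and the grey line spans the listed values. The chromosome 14 ENSPM1_PT locus ranges from 12 to 956, and 4 of the 9 loci have squares only.

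Helitrons were listed at 0 loci in line 15 drought and 8 in line 15 control, at 2 after drought and 5 in control in line 23, and at 6 after drought and 4 in control in WT. The number was lower after drought in both RNAi lines and higher in WT, with a mean difference of -3 (SD 5, n = 3 genotypes) that was -0.5 without line 15 and -5.5 without WT. The 95% Poisson interval in line 15 was 0 to 3.69 after drought and 3.45 to 15.8 under control watering. It was 0.242 to 7.22 after drought and 1.62 to 11.7 under control watering in line 23, and 2.20 to 13.1 after drought and 1.09 to 10.2 under control watering in WT, and within each of the 3 genotypes the intervals overlapped. As a share of the list Helitrons made up 0% in line 15 drought (exact 95% Clopper-Pearson interval 0 to 4.56) and 4.73% in line 15 control (2.07 to 9.11), 4.55% after drought and 4.59% in control in line 23, and 5.22% after drought and 2.68% in control in WT. The lower number after drought in line 23 thus went with a shorter list, at nearly the same share. Taken as 3 loci of the list, the limit that a count of 0 allows was 3.80% in line 15 drought.

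Helitron-N3_PTr with 8 loci and Helitron-N1_PTr with 7 were the most frequent names, beside 3 Helitron-N2_PTr and 2 Helitron-N4_PTr loci. Every Helitron-N3_PTr locus was in 1 list only, 4 of them in line 15 control, 2 after drought and 2 in control in WT. Helitron-N1_PTr on chromosome 4 (4328049 to 4328178, 130 bp) was the Helitron listed most often. Its depth values were 4 (line 23 drought), 6 (line 15 control), 12 (WT drought) and 6 (WT control). Its split-read values of 8, 4, 8 and 10 in that order were above the depth value in 2 of the 4 lists, and split reads covered the whole locus in all 4. Such low values lie near the lowest depth and split-read value in any list, which was 3 for both.

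The highest Helitron depth value belonged to a 572 bp Helitron-N1_PTr locus on chromosome 5 (4344117 to 4344688). It was 24 in line 15 control and 129 in line 23 control, with split-read values of 7 and 5, and the locus was unlisted in the other 4 libraries. Next came Helitron-N3_PTr on chromosome 1 (4147226 to 4147371), listed in line 15 control alone with 52 and also named as Gypsy13-PTR_LTR, and Helitron-N1_PTr on chromosome 2 (3262936 to 3263133), listed in WT drought alone with 31. The highest Helitron split-read value, 18, was that of Helitron-N4_PTr on chromosome 6 (1375689 to 1376181, 493 bp) in WT drought, with a depth value of 28. All Helitron depth values other than 129 were 52 or less.

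The 7 hAT loci were each listed in 1 library, and all were in control libraries. Line 15 control held 5 and WT control 2. Line 23 control held 0 of 109 loci, which allows a share of up to 2.75%, with limits here again taken as 3 loci of the list. In the drought libraries hAT was listed at 0 of 79 loci in line 15 (share of up to 3.80%, against 2.96% in line 15 control), 0 of 44 in line 23 (up to 6.82%) and 0 of 115 in WT (up to 2.61%, against 1.34% in WT control). A lower share after drought was thus not detectable at these list lengths.

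Among the hAT loci, hAT-3_PTr supplied 5 and hAT-5_PTr 2, with depth values from 5 to 24. The highest was hAT-3_PTr on chromosome 1 (25437114 to 25437925, 812 bp, the longest member of any superfamily) with a depth value of 24 and a split-read value of 6 in line 15 control. On chromosome 16 (6775937 to 6776064) hAT-3_PTr had 18 and a split-read value of 3 in the same list. On chromosome 8 (14108422 to 14108578) it had 14 and the highest hAT split-read value, also 14.

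Harbinger loci, all named Harbinger1_PTr, were likewise listed in 1 library each. Line 15 drought held 2 and line 15 control 0, line 23 drought and line 23 control held 1 each, and WT drought held 0 and WT control 1. The highest depth value was 24 on chromosome 15 (4634375 to 4634518) in WT control, with a split-read value of 15. The line 15 drought loci lay on chromosome 2 (2960657 to 2960767), with a depth value of 17 and a split-read value of 4, and on chromosome 5 (3157597 to 3157979), with 8 and 5. The loci of line 23, on chromosomes 3 and 18, both had a depth value of 4. With at most 2 loci in a list, no difference between libraries could be measured.

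Set against WT, the RNAi lines each had 5 member loci after drought, against 12 in WT. Under control watering line 15 had 21 and line 23 had 14, against 15 in WT. The lines were therefore both below WT after drought and on either side of it under control watering. CACTA numbers after drought were 3 (line 15) and 2 (line 23), against 6 in WT, and all 3 control libraries had 8. Helitron numbers after drought were 0 (line 15) and 2 (line 23), against 6 in WT, and under control watering 8 (line 15) and 5 (line 23), against 4 in WT. The whole lists were shorter as well, with 79 (line 15) and 44 loci (line 23) after drought, against 115 in WT. The member share after drought was 6.33% (line 15) and 11.4% (line 23), against 10.4% in WT, so by this measure the WT share fell between those of the lines.

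Few member loci were shared by the RNAi lines without WT, and the same held for all listed loci. The member shares were 5.56% after drought and 4.76% under control watering, near those of all loci. After drought 1 of 18 member loci was in both RNAi lists and not in the WT list (3.70% of all 189 loci), the EnSpm3_PT locus on chromosome 1, which was in the WT control list. Under control watering 2 of 42 were (5.78% of all 329 loci), the chromosome 5 loci of EnSpm2_PTr at 2400767 and Helitron-N1_PTr at 4344117, and only the Helitron was unlisted in both WT libraries. No member was listed in both libraries of an RNAi line and in neither WT library. Over both waterings 30 of 55 members were in RNAi libraries only (48.2% of all 436 loci) and 17 in WT libraries only (30.5% of all loci), where there were 4 RNAi and 2 WT libraries. At the chromosome 14 ENSPM1_PT locus the mean log2 depth value was 6.60 in the 4 RNAi libraries and 8.72 in the 2 WT libraries, which is -2.12 apart (p = 0.333 by an exact two-sided permutation test, whose smallest possible value here is 0.067). This test pooled both waterings and did not take watering into account. Pooled in this way the groups overlapped, as 630 in line 23 control lay between 186 in WT drought and 956 in WT control. Within each watering both RNAi lines lay below WT, with 102 (line 15) and 12 (line 23) after drought, against 186 in WT, and 114 (line 15) and 630 (line 23) under control watering, against 956 in WT. Relative to the summed depth of its list this was not so for line 23 control, at 1.42%, against 1.04% in WT control. Nor was it so for the split-read value in line 15 drought, at 25, against 22 in WT drought, or in line 23 control, at 55, against 50 in WT control.

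Most members were listed in a single library, as were most of all listed loci, and pooled they had lower depth values than the other loci. Relative to length, the lower depth did not hold for CACTA over the 6 lists together. The members were also short. Their median length per locus was 225 bp for CACTA, 157 bp for hAT, 135 bp for Harbinger and 193 bp for Helitron, and 178 bp for all 55, against 283 bp for the 381 other loci. No CACTA locus exceeded 290 bp, and 6 of the 55 members (10.9%) were longer than 300 bp, against 46.7% of the other loci. The lists do not say how long the full elements are, so whether a listed locus is a fragment was not measured.

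**Figure D4:**
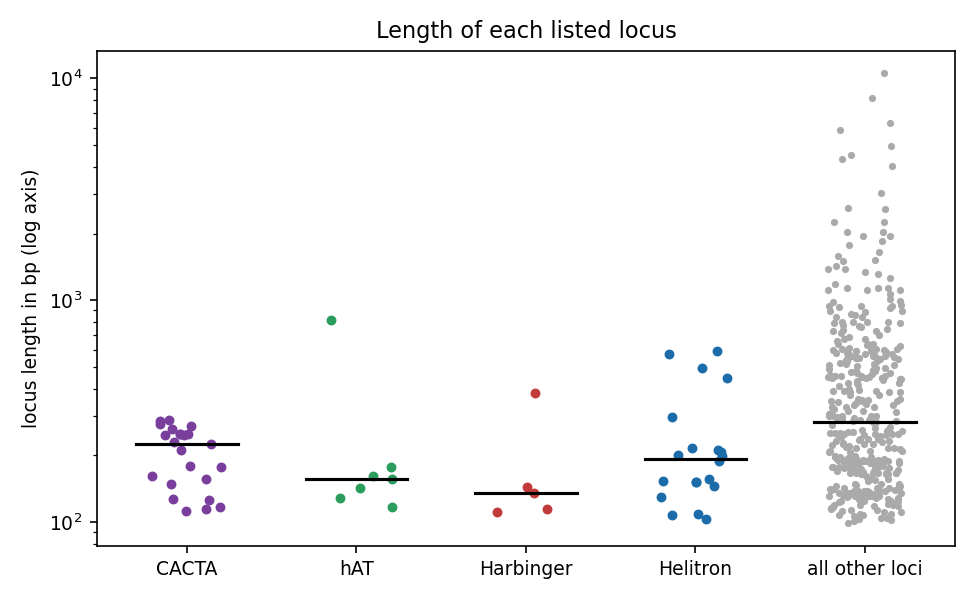
Length in bp (vertical log axis) of each listed locus, by superfamily and for all other loci; points are loci, spread sideways to separate them, and black bars are medians. The CACTA loci lie between 112 and 290 bp, while the other loci reach 10557 bp.

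Over the 6 lists, the median depth value per entry was 20 for CACTA, 9 for hAT, 8 for Harbinger and 8 for Helitron, and 14.5 for all 72 member entries, against 34 for the 593 other entries. The member median was the lower in 6 of 6 lists. Per 100 bp of locus the medians were 6.59 for members and 9.09 for the other entries, and the member median was then lower in 4 of 6 lists, so part of the gap moved with length. By superfamily they were 11.6 for CACTA, 5.56 for hAT, 3.48 for Harbinger and 4.62 for Helitron. CACTA thus lay above the other entries over the 6 lists together, though below them in both line 23 lists. Among loci of at most 300 bp the median depth value per entry was 13 for members and 17 for the others. For CACTA, which had no longer locus, it stayed at 20. Of the 72 member entries 10 had a depth value of 100 or more, against 141 of the 593 other entries. These were 9 of the 35 CACTA entries and 1 Helitron entry. Split-read medians were alike, at 6 for all members and 7 for the other entries.

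Split-read values stood above depth values in 13 of 72 member entries (18.1%), against 53 of 593 other entries (8.94%). Low depth went with this, as 58.3% of member entries and 35.1% of other entries had a depth value under 20. Among entries under 20 the shares were 12 of 42 for members and 33 of 208 for the others (28.6% and 15.9%). Among entries of 20 or more they were 1 of 30 and 20 of 385 (3.33% and 5.19%). Entries of 1 list and entries of 1 locus are not independent, and no test was run on these shares.

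**Figure D5:**
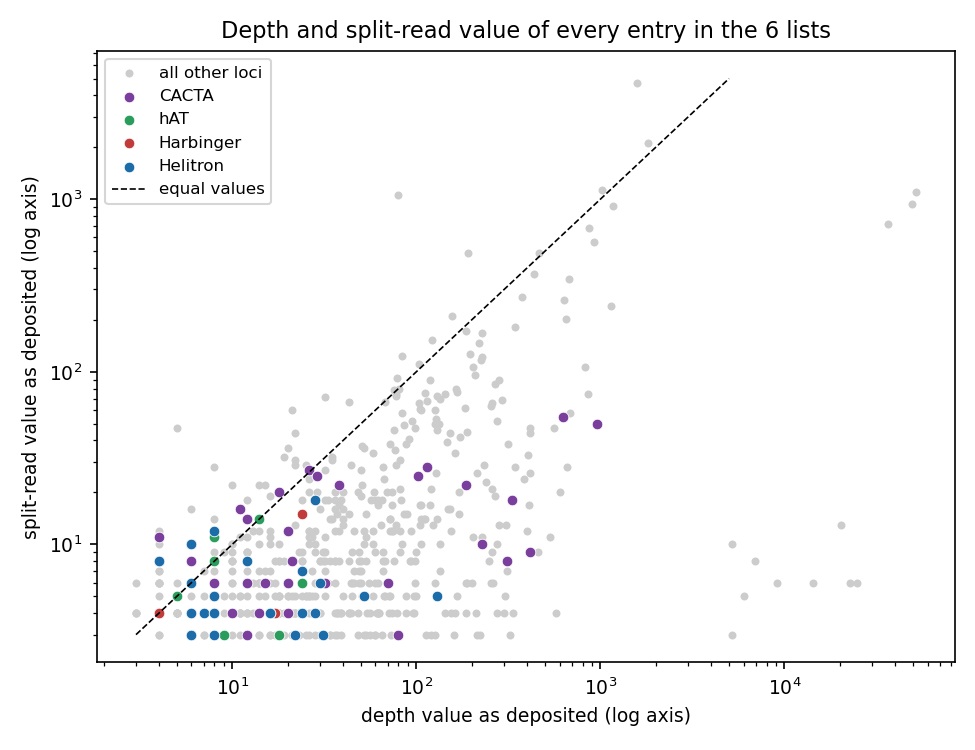
Split-read value against depth value, both as deposited on log axes, for every entry of the 6 lists; coloured points are the 4 superfamilies, grey points all other loci, and the dashed line marks equal values. Most hAT, Harbinger and Helitron points lie at depth values under 20, and the CACTA points reach 956.

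In all, 46 of 55 members (83.6%, exact 95% Clopper-Pearson interval 71.2 to 92.2) were listed in a single library, against 73.4% of all 436 loci. That interval held the 73.4% of all loci. The number was 17 of 23 for CACTA (73.9%), 7 of 7 for hAT, 5 of 5 for Harbinger and 17 of 20 for Helitron (85%). The CACTA share was thus near that of all loci, and the higher pooled share came from the other superfamilies. Restricted to loci of at most 300 bp, it was 42 of 49 members (85.7%) and 154 of 203 other loci (75.9%). Members lay on all 19 chromosomes of the lists, with the most, 8, on chromosome 5, which held 26 of all listed loci. Only 2 of the 55 had another listed locus within 1000 bp, and the median gap to the nearest listed locus was 256257 bp. How reads that match several copies of a family were placed is not stated in the labels, so the values of loci that share a name may not be independent.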

How the data were processed

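Mobilome-seq of 6 meristem DNA libraries, 1 per group, gave the lists analysed here. Per the labels' protocols, CTAB-extracted DNA was enriched by amplifying its extrachromosomal part and sequenced as paired-end Nextera XT libraries on a MiSeq. The submitters' processing notes name Bowtie2 without a version, and no source read here gives the build, the counting or the filters. Per the file headers, each locus carries 2 deposited signal columns (DOC and SR, whole numbers not scaled to library size) and 2 columns headed as percent whose deposited values are a fraction of the locus, from 0 to 1. A list belongs to the sample with the title of its sheet. Library read totals and reference sequence are not used here, so the depth of sequencing behind a value is unknown and no sequence is printed.

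Loci were matched by chromosome, start and end, with Python 3.11.15, pandas 2.3.3 and scipy 1.17.1. Superfamilies were taken from the first name. The members and the lists compared were chosen with earlier results of these data known. Loci named are those in 3 or more libraries, the 3 highest depth values and the highest split-read value of each superfamily, those in all 3 libraries of a watering, and those shared by RNAi libraries (both libraries of a line, or both lines of a watering) without WT; this gave 16. The locus listed in all 6 libraries was tested with an exact sign-flip test over 3 genotypes and an exact permutation test of 4 against 2 libraries. The permutation test did not take watering into account. Neither test could reach 0.05. Numbers over members were not tested. The exact tests and the naming of superfamilies were checked on simulated data.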

Additional observations from a re-analysis of the deposited data

Results flagged for a closer look

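Helitron numbers moved in opposite directions between genotypes. Drought minus control was -8 loci in line 15 and -3 in line 23, and 2 in WT. The same numbers set the RNAi lines below WT after drought, by -6 in line 15 and -4 in line 23, and above WT under control watering, by 4 in line 15 and 1 in line 23. As a share of the list Helitrons stood at 0% after drought and 4.73% in control in line 15, 4.55% after drought and 4.59% in control in line 23, and 5.22% after drought and 2.68% in control in WT, so the line 23 number moved with list length while its share hardly differed. Harbinger numbers also differed in sign, with drought minus control at 2 in line 15, 0 in line 23 and -1 in WT. With 1 pair of libraries in each genotype these differences were not tested.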

How the results depend on the processing

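The 10 differences in number (4 superfamilies and all 4 together, each for drought minus control and RNAi minus WT), the chromosome 14 ENSPM1_PT locus and the CACTA sum were recomputed under 96 alternatives, and 90 kept the direction or gave 0. Those given in loci, and the CACTA sum, also moved by less than 1 SD over genotypes or RNAi libraries. That limit is loose, since the SD was larger in size than each RNAi minus WT difference in loci (7.76 against -2.25 for all 4). For drought minus control it was larger than the hAT, Harbinger and Helitron differences. Shares of the list were judged by direction alone, being in percentage points, and drought minus control they were -1.29 for CACTA, -1.43 for hAT, 1.07 for Harbinger, -0.75 for Helitron and -2.40 for all 4. Means follow in loci. The Harbinger difference, drought minus control, turned to -0.33 with a depth value of at least 20, against 0.33, and the Harbinger difference, RNAi minus WT, to -0.5, against 0.5. The hAT difference, RNAi minus WT, was 0.25 and turned to -1 when any name of a locus counted. The RNAi minus WT number over all 4 superfamilies, -2.25, was 0.49 as a share of the list in percent. Leaving out genotypes in turn, drought minus control ranged from -5.5 to -3.5 for CACTA, -3.5 to -1 for hAT, -0.5 to 1 for Harbinger, -5.5 to -0.5 for Helitron and -12.5 to -6 for all 4, and the locus ratio from -4.04 to -1.26. With 1 line or without line 23 drought, RNAi minus WT ranged from -2 to -0.67 for CACTA, -1 to 1.5 for hAT, 0.5 to 0.5 for Harbinger, -1.5 to -0.67 for Helitron and -4 to -0.17 for all 4. The means for Helitron loci, drought minus control, were -1.67 at a depth value of at least 20 and -1.33 at a covered fraction of at least 0.9, against -3, and for all 4 they were -5.33 under both, against -9.33. The alternatives for the CACTA sum and the one without line 23 drought were added after the data were seen. Drought and control were paired within genotype in the drought minus control differences. RNAi minus WT was unpaired, as the mean over RNAi libraries less the mean over WT libraries, with both waterings pooled. Without line 23 drought the waterings were no longer balanced between RNAi and WT. The labels give no replicate numbers that could serve as a block. List length and the low depth values of hAT, Harbinger and Helitron limit what can be seen, and causes were not tested.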

Other observations

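Names of the 4 superfamilies also stood in a later place on 8 loci first named as Gypsy, 6 of them Gypsy-72_PTr-LTR, with depth values from 14 to 306. In turn 4 Helitron loci also carried a Gypsy name, while no CACTA, hAT or Harbinger locus carried a name of another class. On chromosome 1, a Helitron-N2_PTr locus (13958480 to 13958926, 447 bp) and a Gypsy-72_PTr-LTR locus (38198036 to 38198481, 446 bp) carried the same 3 names, with Ogre-PT1_I-int between them, in reverse order. Depth values of the Helitron-N2_PTr locus were 8 (line 23 drought) and 16 (WT control), and it was unlisted elsewhere. The Gypsy-72_PTr-LTR locus was in all 6 lists, at 34 after drought and 66 in control in line 15, 30 after drought and 44 in control in line 23, and 28 after drought and 43 in control in WT. This pair was picked out after its values were seen.

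The closest neighbours among the members were a Helitron-N3_PTr locus on chromosome 8 (14108035 to 14108250) and the hAT-3_PTr locus that follows it after a gap of 171 bp. They were listed in different libraries, the Helitron in WT control with a depth value of 24 and a split-read value of 4, and the hAT in line 15 control with 14 and 14. Of all depth values, 86.1% were even among member entries and 68.5% among the other entries.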
